A study of Mus musculus with 9 samples.

Results

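The subject is 10 genes that set the balance between cutting and sparing the extracellular matrix in mouse liver: 7 matrix metalloproteinases (Mmp2, Mmp8, Mmp9, Mmp12, Mmp13, Mmp14 and Mmp19) and 3 of their tissue inhibitors (Timp1, Timp2 and Timp3). They were chosen by name, and all 10 were found among the 53713 genes of the table. The question put to them was which liver cells make the proteases and which make the inhibitors. Every level comes from 1 single-cell matrix that pools 6 samples labelled CluKO, from livers of C57BL/6J mice aged 6 to 8 weeks. Per the series' design text these are 3 CluKO mice that received recombinant human clusterin, a secreted chaperone, while carbon tetrachloride (CCl4), a liver toxin that scars the liver, was injected. The labels give neither the allele nor the weeks of CCl4 for them. Wild-type mice of the same strain and age given CCl4 for 0, 2 or 4 weeks form 3 more groups of 1 sample each, with no number of mice given. Their rows carry no gene names in the files used here, so gene levels of wild-type mice were not analysed here.

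Matrix metalloproteinases are zinc enzymes, made as inactive precursors, that cut collagens, elastin, gelatin and other matrix proteins. Mmp8 and Mmp13 are collagenases, Mmp2 and Mmp9 gelatinases, Mmp12 the macrophage elastase, and Mmp14 is tethered to the cell surface, where together with Timp2 it activates the Mmp2 precursor. TIMPs block active metalloproteinases by binding them tightly one to one, and Timp3 stays bound to the matrix. In liver scarring TIMP1 is known as the inhibitor that rises, and macrophages as a source of proteases when scars resolve.

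The matrix held 4694 barcodes, each present once, and 28912707 unique molecular identifiers (UMIs, tags that count each captured RNA molecule once). Cells with at least 200 genes and at most 20% mitochondrial counts numbered 4616, and each held between 2371 and 40710 UMIs (median 4857). The 3 wild-type samples held 7739 to 20215 cells and 53387027 to 102125170 UMIs. Against the label, 13751 UMIs of Clu, the gene of clusterin, were counted in the pooled matrix (31.9% of cells with at least 1), so it is called the matrix labelled CluKO. Where in the transcript the deletion lies is not given, so a tag at the 3′ end does not check it. Because barcodes carry no sample name, the matrix is 1 sample: no test between mice was possible, no p-value is given, and every interval below covers counting error at 95% only.

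Cells were placed in classes by fixed marker genes, none of them a member, with at least 3 markers of a class detected. The macrophage/monocyte-like class held 2313 cells. Its subsets were a Gpnmb/Spp1 subset (1056 cells), named for 2 genes of lipid-associated macrophages, a Kupffer-like subset (611, the resident macrophages of liver), an MHC class II subset (217) and a monocyte-like subset (260), with 169 cells in none. Mesothelial-like cells, the lining of the liver surface, numbered 510, neutrophil-like cells 311, hepatocyte-like cells 343, granulocyte-monocyte progenitor-like cells 226 and endothelial-like cells 23. Only 2 cells passed the gate for stellate cells and fibroblasts, so these recognised makers of TIMPs and of Mmp2 can hardly be described here. That gate used Lrat, Reln, Pdgfrb, Des, Rgs5, Colec11, Hand2, Ngfr and Lhx2, so it does not count fibroblasts low in these genes. Whether such cells lie among the mesothelial-like cells was not tested. The leading genes of each of these classes but the stellate/fibroblast-like cells held its own markers (Upk3b and Krt19 in mesothelial-like cells, Marco and Clec4f in the Kupffer-like subset, Clec4g in endothelial-like cells). The gates select on these same markers, so their lead does not check the class names. The 232 plasma-like and T/NK-like cells, lymphoid cells not known as main sources of these genes, served as the measure of free RNA that reaches every cell. Another 416 cells stayed unassigned, and 578 (12.5%) passed the gates of more than 1 lineage. No doublet caller was used; leaving those cells out was run as an alternative.

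The 10 genes made up 44231 UMIs, 0.154% of the total. Levels are given as CPM, UMIs of the gene scaled to a fixed total of UMIs per class. Since the kit tags the poly-A end once per molecule, they were compared between genes without scaling to length.

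Positions are those of GENCODE M21 on the GRCm38 build. Mmp13 (chr9:7272514-7283331), Mmp12 (chr9:7344381-7369499) and Mmp8 (chr9:7558456-7568485) belong to a cluster of 10 metalloproteinase genes that spans 427 kb of chromosome 9. Mmp27 (chr9:7571396-7581885) follows Mmp8 on the same strand after a gap of 2910 bases. Within the cluster Mmp12, Mmp13 and Mmp27 were counted mainly in macrophage-like cells and Mmp8 mainly in neutrophil-like cells, while the neighbours between them (Mmp1a, Mmp1b, Mmp3 and Mmp10) gave 0, 0, 5 and 7 UMIs in all cells. The other members stand alone: Mmp2 at chr8:92827291-92853420, Mmp9 at chr2:164940780-164955850, Mmp14 at chr14:54431612-54445364, Mmp19 at chr10:128790910-128800824, Timp1 at chrX:20870166-20874735, Timp2 at chr11:118301069-118355740 and Timp3 at chr10:86300372-86349506, all on the plus strand but Timp2. Timp1 lies inside Syn1 and Timp3 inside Syn3, synapsin genes read from the opposite strand, and the labels and files do not say whether counting used strand. Syn1 gave 4 UMIs and Syn3 7 UMIs in mesothelial-like cells, against 6255 of Timp1 and 2284 of Timp3. In macrophage/monocyte-like cells Syn1 gave 135 UMIs beside 78 of Timp1, so which gene the few Timp1 counts there come from cannot be told apart. Mmp19 overlaps Tmem198b on the opposite strand, which gave 60 UMIs beside 243 of Mmp19 in mesothelial-like cells. In macrophage/monocyte-like cells the counts were 76 and 361 UMIs.

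Because these neighbours share a stretch of chromosome and are counted in different cells, the 150 bases just upstream of their RefSeq starts are shown (GRCm38.p6, 5′ to 3′ along the gene), with Timp1 as the inhibitor set against them. Capitals mark the letters TGANTCA, which AP-1 factors bind, and the TATA-box motif TATAAA; both strands were searched.
Mmp13, chr9:7272364-7272513, plus strand: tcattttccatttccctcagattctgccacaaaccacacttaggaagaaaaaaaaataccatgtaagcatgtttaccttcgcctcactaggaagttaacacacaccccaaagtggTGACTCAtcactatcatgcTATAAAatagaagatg
Mmp12, upstream start, chr9:7344247-7344396, plus strand: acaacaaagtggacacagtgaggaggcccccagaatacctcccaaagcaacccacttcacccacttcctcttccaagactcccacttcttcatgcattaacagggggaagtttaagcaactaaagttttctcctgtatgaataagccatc
Mmp12, downstream start, chr9:7347224-7347373, plus strand: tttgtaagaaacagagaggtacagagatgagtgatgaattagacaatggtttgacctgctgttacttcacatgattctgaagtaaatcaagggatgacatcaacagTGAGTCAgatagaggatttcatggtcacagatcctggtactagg
Mmp8, chr9:7558279-7558428, plus strand: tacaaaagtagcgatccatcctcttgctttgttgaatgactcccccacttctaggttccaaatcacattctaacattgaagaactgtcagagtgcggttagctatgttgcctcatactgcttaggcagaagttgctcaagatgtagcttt
Mmp27, chr9:7571246-7571395, plus strand: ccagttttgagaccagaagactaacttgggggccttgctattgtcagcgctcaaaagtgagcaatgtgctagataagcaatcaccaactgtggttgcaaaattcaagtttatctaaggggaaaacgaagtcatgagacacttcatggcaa
Timp1, chrX:20870016-20870165, plus strand: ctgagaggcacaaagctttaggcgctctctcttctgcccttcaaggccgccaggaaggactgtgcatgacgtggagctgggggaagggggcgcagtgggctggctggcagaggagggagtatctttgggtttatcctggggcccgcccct
The Mmp13 stretch holds TGACTCA, beginning 35 bases upstream of the start, and TATAAA beginning 16 bases upstream. The stretch before the downstream start of Mmp12 holds TGAGTCA, beginning 44 bases upstream. Neither set of letters occurs in the stretches of Mmp8, Mmp27 or Timp1, or before the upstream start of Mmp12, whose last 16 bases lie in an exon by GENCODE. Among 32851 stretches of this length in the table of promoters, 4.24% hold TGANTCA and 7.57% hold TATAAA, with no overlap between these letters in the stretches printed. The matches are a description of letters, and which start is used in which cell was not measured.

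Most protease and most inhibitor UMIs lay in different classes. Macrophage/monocyte-like cells held 78.8% of all Mmp UMIs of the 7 members and 21.2% of the Timp UMIs, and neutrophil-like cells held 14.5% of Mmp UMIs, whereas mesothelial-like cells held 4.01% of Mmp UMIs but 75.4% of the Timp UMIs, although they are 510 of the 4616 cells. Mesothelial-like cells had 269 CPM (253 to 285) of the 7 proteases together and 2748 CPM (2699 to 2798) of the 3 inhibitors, 10.2 inhibitor UMIs per protease UMI (9.63 to 10.9). Family genes outside the 10 are not in the sums of this paragraph. Among them, Mmp23 had 621 UMIs in mesothelial-like, Mmp27 573 in macrophage/monocyte-like and Mmp25 147 in neutrophil-like cells. Macrophage/monocyte-like cells had sums of 1638 CPM of proteases and 239.9 CPM of inhibitors, 6.83 protease UMIs per inhibitor UMI (6.58 to 7.08). Neutrophil-like cells stood furthest to the protease side among classes of at least 50 cells, with 2616 and 106 CPM (24.6 per inhibitor UMI, 21.1 to 28.9). The class holds 98 cells that mostly lack neutrophil genes (4.81 per inhibitor UMI, 3.79 to 6.16), and without them the other 213 cells had 44.1 per inhibitor UMI (35.6 to 55.4). Endothelial-like cells had 646 and 612 CPM, from 58 and 55 UMIs. Of the 58 protease UMIs 25 were Mmp12 in 1 cell, so the 2 sums are not read as alike. In plasma-like and T/NK-like cells the sums were 18.8 and 10.1 CPM, taken as the level of free RNA. Plasma-like cells gave 1844043 of the 2073434 UMIs of this pool, at 15.7 and 5.42 CPM. The 46 T/NK-like cells stood higher, at 43.6 and 48.0 CPM from 10 and 11 UMIs, so the level is a rough one.

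**Figure D1:**
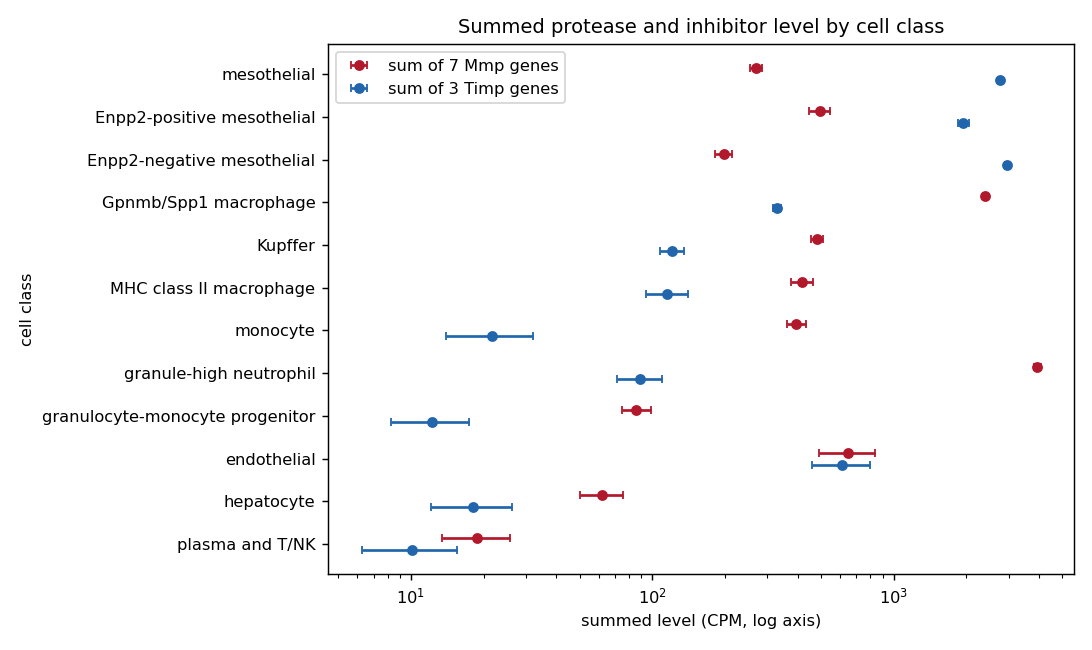
Summed level of the 7 Mmp genes (red) and the 3 Timp genes (blue) in CPM on a log axis, 1 row per cell class, with exact Poisson intervals of 95%. Blue lies right of red in the mesothelial rows (2748 against 269 CPM over all mesothelial-like cells). Red lies right of blue in every macrophage, monocyte and neutrophil row. The intervals overlap in endothelial-like cells, where 25 of the 58 protease UMIs came from 1 cell.

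Much of the protease side rests on 1 gene. Mmp12 gave 71.6% of all Mmp UMIs and 88.6% of those in macrophage/monocyte-like cells. With Mmp12 left out, macrophage/monocyte-like cells held fewer protease than inhibitor UMIs, 2578 against 3305, or 0.780 per inhibitor UMI (0.741 to 0.822). The same held in the Gpnmb/Spp1 subset (0.615) and in the Kupffer-like subset (0.525), while the interval of the MHC class II subset held 1 (1.21, 0.920 to 1.59). In neutrophil-like cells the direction stayed: without Mmp8, 10.0 protease UMIs per inhibitor UMI remained (8.56 to 11.8), Mmp9 being the second gene. Timp1 made up 53.2% of the inhibitor UMIs of mesothelial-like cells, and without it they still held 4.79 inhibitor UMIs per protease UMI (4.49 to 5.10).

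**Figure D2:**
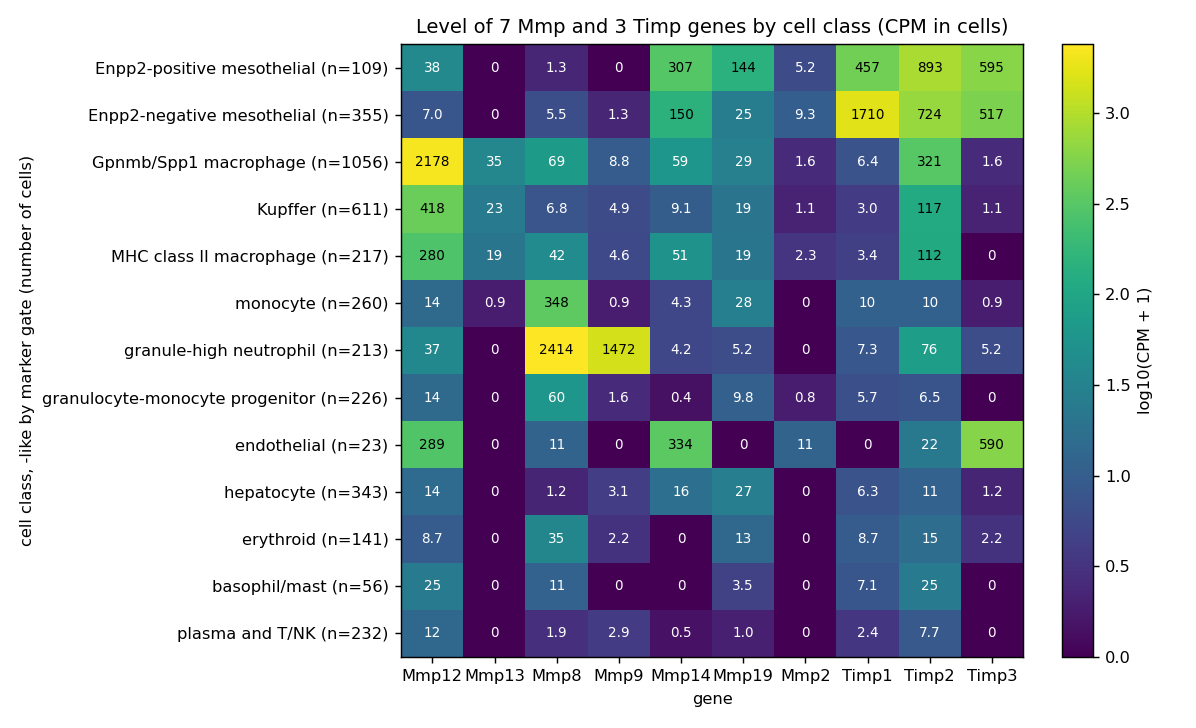
Level in CPM of each of the 10 genes (columns) in 13 cell groups (rows, number of cells in brackets), coloured by log10(CPM + 1). Bright cells include Mmp12 at 2178 CPM in the Gpnmb/Spp1 subset and Timp1 at 1710 CPM in Enpp2-negative mesothelial-like cells, while plasma-like and T/NK-like cells are taken as the level of free RNA.

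To set a scale, a gene was counted as higher or lower in a class when CPM differed at least 2-fold from that in the cells it was set against after 20 CPM was added to each side, among genes with at least 30 UMIs. In mesothelial-like cells 4 of the 10 members were higher than in all other kept cells (Mmp14, Timp1, Timp2 and Timp3), where 8.17% of 13759 genes were, and 3 were lower (Mmp8, Mmp9 and Mmp12), where 6.23% were. In macrophage/monocyte-like cells 2 members were higher (Mmp12 and Mmp13; 4.86% of all genes) and 4 lower (6.27%). Neutrophil-like cells also had 2 members higher (Mmp8 and Mmp9; 1.82%) and 4 lower (5.04%). Against the same background, 2 members were higher in the 23 endothelial-like cells (Mmp14 and Timp3; 9.05%) and 6 lower (8.07%), 1 was higher in monocyte-like cells (Mmp8; 2.11%) and 6 lower (5.41%), and 2 were higher in the Gpnmb/Spp1 subset (Mmp12 and Mmp13; 2.22%) and 3 lower (5.38%). With 10 genes of known cell preference these counts describe the members and no more.

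Among the proteases, Mmp12 was the most counted member, with 20508 UMIs. The Gpnmb/Spp1 subset had 2178 CPM, the Kupffer-like subset 418 CPM, the MHC class II subset 279.8 CPM and monocyte-like cells 13.8 CPM. The last value does not differ from the 12.5 CPM of plasma-like and T/NK-like cells, so Mmp12 was not detectable above free RNA in monocyte-like cells, nor in mesothelial-like cells (13.3 CPM). Of the 26 Mmp12 UMIs in endothelial-like cells 25 came from 1 cell, which leaves 12.9 CPM without it. After every cell was thinned to 2000 UMIs, Mmp12 was seen in 48.8% of Gpnmb/Spp1, 15.1% of Kupffer-like and 1.15% of monocyte-like cells, beside 2.16% of plasma-like and T/NK-like cells (61.1%, 18.3%, 4.23% and 10.3% unthinned). Median depth was 6861, 4086 and 3869 UMIs in these subsets and 8073.5 UMIs in plasma-like and T/NK-like cells.

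Mmp12 was also uneven within the subsets. Of 2313 macrophage/monocyte-like cells 92 held 50% of its UMIs, the 10% of cells with the most held 78.8%, and 1 cell held 341 UMIs. In the Kupffer-like subset 10 of 611 cells held 50% of that subset's Mmp12 UMIs, and in the MHC class II subset 3 of 217 cells did. Within the Gpnmb/Spp1 subset alone 79 of 1056 cells held 50%. After thinning, the variance of Mmp12 counts over the cells of that subset was 11.1 times their mean. It was 1.33 times for Timp2, 1.29 times for Mmp14 and 1.64 times for Mmp8. A value near 1 is what counting alone gives. At equal unevenness this quotient grows with the mean, and the mean counts per cell were 3.45, 0.616, 0.121 and 0.163 in that order. The quotients therefore do not rank the genes by unevenness. By the shares above, a minority of cells with very high Mmp12 carried much of the level of the class.

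**Figure D3:**
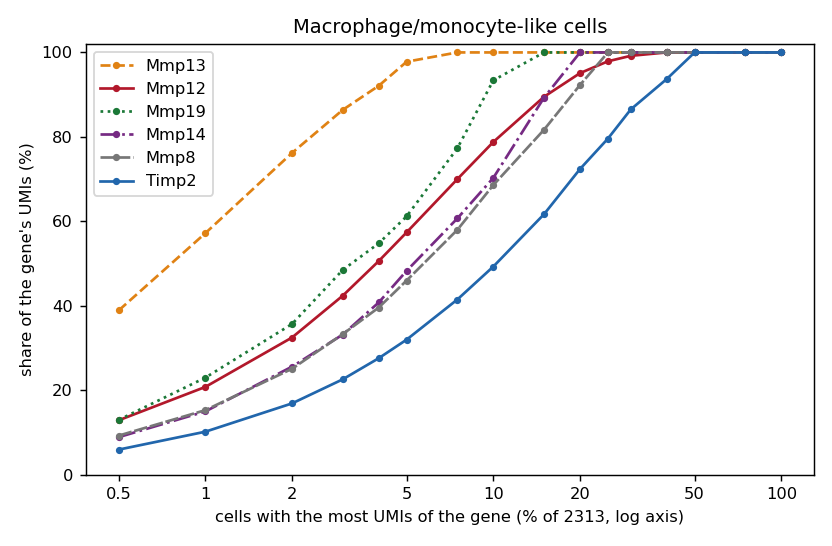
Share of each gene's UMIs (vertical axis, %) held by the macrophage/monocyte-like cells with the most UMIs of that gene (horizontal axis, % of 2313 cells, log axis). At 10% of cells Mmp12 has reached 78.8% and Timp2 49.3%; the steep line of Mmp13 rests on 404 UMIs, and a gene with few UMIs climbs early by counting alone.

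Mmp13, the collagenase that does the work of the human interstitial collagenase in rodents, was counted almost only in macrophage-like cells. Of its 413 UMIs 404 lay in macrophage/monocyte-like cells and 0 in mesothelial-like cells, which allows up to 0.702 CPM there (3 counts of the total). Levels were 35.3 CPM in the Gpnmb/Spp1, 22.7 CPM in the Kupffer-like and 19.4 CPM in the MHC class II subset, against 0.865 CPM in monocyte-like cells. Neither macrophage protease of the cluster was thus detectable above free RNA in monocyte-like cells. The cells with Mmp13 were mostly cells with Mmp12: after thinning, Mmp12 was seen in 66.7% of the 69 Mmp13-positive macrophage/monocyte-like cells (54.3 to 77.6) and in 28.1% of the 2244 others. The same contrast stood in the Kupffer-like subset, with 71.4% of 14 cells against 13.7% of 597, and in the Gpnmb/Spp1 subset, with 73.2% of 41 against 47.8% of 1015. In the MHC class II subset the shares were 33.3% of 9 cells (7.49 to 70.1) and 11.1% of 208 (7.14 to 16.1), with overlapping intervals. Over the whole class and in the Gpnmb/Spp1 subset, cells with Mmp12 also held the inhibitor Timp2 more often. Timp2 was seen in 40.4% of Mmp12-positive (36.7 to 44.2) and 21.0% of Mmp12-negative macrophage/monocyte-like cells (19.1 to 23.1). Within the Gpnmb/Spp1 subset the shares were 46.4% (42.0 to 50.8) and 36.6% (32.5 to 40.8). They were 19.6% and 17.1% in the Kupffer-like subset and 23.1% and 13.6% in the MHC class II subset. The intervals overlap in both of these subsets, so no such contrast was detectable there. The part of the mix of subsets in the value of the whole class was not tested.

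Between the resident and the lipid-associated subset, 4 of the 8 members with enough counts were higher in Gpnmb/Spp1 than in Kupffer-like cells, where 2.16% of 10521 genes were, and 0 were lower, where 4.72% were. Mmp12 was 5.21-fold higher (4.90 to 5.54), at 2178 against 418 CPM. Mmp14 was 6.51-fold higher (4.33 to 10.3), at 59.2 CPM in Gpnmb/Spp1 and 9.09 CPM in Kupffer-like cells. Mmp8 was 10.1-fold higher (6.36 to 17.2), at 69.2 and 6.82 CPM. The inhibitor Timp2 moved the same way as the proteases and was 2.75-fold higher (2.44 to 3.10), at 321 against 117 CPM. Mmp13 at 35.3 and 22.7 CPM and Mmp19 at 28.8 and 18.9 CPM did not reach the 2-fold rule. The opposite direction was seen for Mmp27, a family gene outside the 10, which was 2.67-fold lower in Gpnmb/Spp1 cells (2.24 to 3.19), at 34.3 against 91.6 CPM in Kupffer-like cells. In Gpnmb/Spp1 cells summed Kupffer markers stood at 2091 CPM and their own markers at 19791 CPM, against 23804 and 613 CPM in Kupffer-like cells, so markers of each subset were also counted in the other.

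Mmp8, the neutrophil collagenase, and Mmp9, the gelatinase stored in neutrophil granules, both led in neutrophil-like cells, with 1548 and 933 CPM. Neutrophil-like cells held 91.6% of Mmp9 UMIs but 65.0% of Mmp8 UMIs. The remainder of Mmp8 was spread over other myeloid cells. Monocyte-like cells had 348 CPM of Mmp8 and it was seen in 43.5% of them after thinning, against 0.862% of plasma-like and T/NK-like cells. The macrophage/monocyte-like cells in no subset had 72.6 CPM, the Gpnmb/Spp1 subset 69.2 CPM and the progenitor-like class 59.5 CPM, while Kupffer-like cells had 6.82 CPM and plasma-like and T/NK-like cells 1.93 CPM. Mmp9 in contrast stood at 0.865 CPM in monocyte-like cells from 1 UMI, 8.75 CPM in Gpnmb/Spp1 cells and 2.89 CPM in plasma-like and T/NK-like cells. Monocyte-like cells therefore had Mmp8 far above the level of free RNA, but not Mmp9. Summed over 9 neutrophil markers, all detected in both, the Gpnmb/Spp1 subset had 1067 CPM and the Kupffer-like subset 509 CPM, and the part of such RNA in the Mmp8 levels was not tested.

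Neutrophil-like cells were split by the share of UMIs from 5 secondary granule genes (Ltf, Camp, Ngp, Lcn2 and Chil3), which are made while a neutrophil matures. The split at 1% did not separate neutrophils of 2 kinds: of the 98 cells under 1%, 83 had less than 5% of UMIs from neutrophil markers, and the leading genes of the 98 began with Car1 and Car2, which red cells express. The planned comparison, Mmp8 at 2414 CPM in the 213 cells above 1% against 247 CPM in the 98 below and Mmp9 at 1472 against 123 CPM, is therefore not read as a difference within neutrophils. In it 2 of 5 members tested were higher (7.87% of 5528 genes) and 2 lower (38.5%). The 213 cells above 1% were then compared among themselves in bins chosen after the data were seen.

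Within these 213 cells both collagenase and gelatinase were low where granule genes were highest. From 1 to 10% granule share (62 cells), 10 to 20% (86 cells) and 20% or more (65 cells), Mmp8 stood at 4725, 2755 and 454 CPM and Mmp9 at 2390, 1783 and 504 CPM. Mmp8 was 10.4-fold lower in cells at 20% or more than in cells at 1 to 10% (8.79 to 12.4), and 8.47-fold lower when granule genes were left out of the totals. Mmp9 was 4.74-fold lower (3.99 to 5.66), or 3.86-fold with granule genes left out. After thinning, Mmp8 was seen in 23.1% of the cells at 20% or more and in 96.8% of those at 1 to 10%, and Mmp9 in 44.6% and 95.2%. The surface receptor Cxcr2, known from mature neutrophils, was lower along with them (134 against 883 CPM), and the division marker Mki67 was higher (454 against 89.1 CPM), as were the granule genes that set the bins, such as Camp (83194 against 10426 CPM). The neutrophil markers did not stay level over the bins: Retnlg stood at 1276 against 37717 CPM (29.6-fold lower), Csf3r at 143 against 276 CPM and Ly6g at 612 against 505 CPM. Mmp25, a membrane-bound family member of leukocytes outside the 10, was less uneven, at 96.1 against 161 CPM. The inhibitor Timp2 was lower along the same bins, at 161, 77.3 and 17.5 CPM, and Mmp12 stood at 136, 5.33 and 2.91 CPM, where 30 of the 35 Mmp12 UMIs lay in 1 cell.

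**Figure D4:**
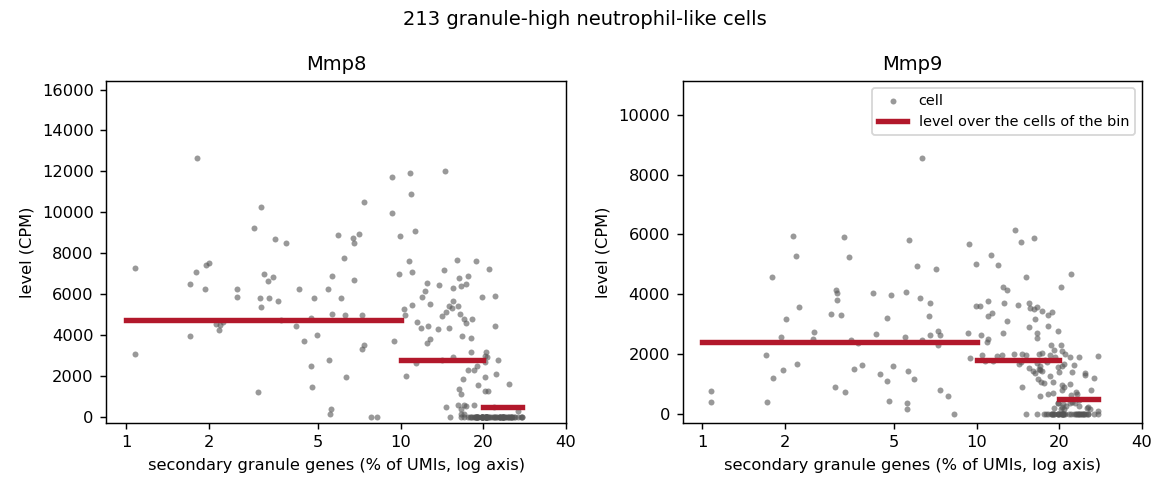
Level of Mmp8 (left) and Mmp9 (right) in CPM in each of 213 neutrophil-like cells (grey points) against the share of its UMIs from 5 secondary granule genes (log axis), with red lines for the level over all cells of a bin. Both genes drop past 20% granule share, to 454 CPM for Mmp8 and 504 CPM for Mmp9, and most points there lie at 0 for Mmp8.

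The pair was also present in the same cells. After thinning, Mmp8 was seen in 84.6% of the 156 Mmp9-positive cells above 1% granule share (78.0 to 89.9) and in 1.75% of the 57 without Mmp9. Both genes share the bins above, so this repeats that pattern cell by cell.

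Mmp14 gave 68.9% of the protease UMIs of mesothelial-like cells. It had 185 CPM there, 6.17-fold more than in all other kept cells (5.58 to 6.84), and 334 CPM in endothelial-like cells from 30 UMIs. The Gpnmb/Spp1 subset had 59.2 CPM and the MHC class II subset 51.4 CPM, whereas monocyte-like cells had 4.33 CPM and plasma-like and T/NK-like cells 0.482 CPM. Mmp19, a soluble member of wide distribution, was even by comparison and did not pass the 2-fold rule in mesothelial-like cells, with 33.1% of its UMIs there and 49.1% in macrophage/monocyte-like cells: 56.8 CPM in mesothelial-like, 28.8 CPM in Gpnmb/Spp1, 27.7 CPM in monocyte-like and 26.9 CPM in hepatocyte-like cells, against 0.965 CPM in plasma-like and T/NK-like cells. Its values in the last 3 of the named classes do not differ beyond their counting intervals. Mmp2, for which stellate cells and fibroblasts are the known source, was scarce: 71 UMIs in all cells, of which 33 lay in 18 mesothelial-like cells (7.72 CPM) and 5 in the 2 stellate/fibroblast-like cells.

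Of the inhibitors, Timp1 was almost confined to mesothelial-like cells, which held 97.2% of its 6437 UMIs at 1463 CPM (71.8% of cells after thinning). Other classes of at least 50 cells had between 2.17 CPM in plasma-like cells and 10.4 CPM in monocyte-like cells, and unassigned cells 25.0 CPM. The 2 stellate/fibroblast-like cells held 8 UMIs of Timp1 (578 CPM, 249 to 1138) and 9 UMIs of Timp2 (649.8 CPM). The near confinement thus holds for the cells captured here, as they were gated. Timp3 was likewise counted mostly in mesothelial-like cells, with 1 addition. Mesothelial-like cells had 534 CPM and 95.6% of its UMIs, and the 23 endothelial-like cells had 590.1 CPM from 53 UMIs, of which 15 lay in 1 cell. These 23 cells also held 6 of 9 stellate and fibroblast markers at 523 CPM in sum and the Gpnmb/Spp1 markers at 2795 CPM, and the part of such RNA in their Timp3 and Mmp14 was not tested. All other classes stood at or below 9.39 CPM. Timp2 was shared: mesothelial-like cells had 751 CPM and macrophage/monocyte-like cells 233 CPM, and since the macrophages are more numerous both classes held 47.5% of its UMIs. Monocyte-like cells had 10.4 CPM of Timp2, close to the 7.72 CPM of plasma-like and T/NK-like cells, while the macrophage subsets had 112 to 321 CPM. Neutrophil-like cells had 92.5 CPM of Timp2 (25.1% of cells unthinned, 15.4% after thinning), and 76.5 CPM without the 98 cells that mostly lack neutrophil genes. T/NK-like cells alone had 43.6 CPM of Timp2 from 10 UMIs (20.9 to 80.2).

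Mesothelial-like cells often carried the whole set of inhibitors. All 3 TIMPs were detected in 62.2% of the 510 cells (57.8 to 66.4; 24.5% after thinning). Mmp14 and Timp2, 2 of the 3 parts of the Mmp2-activating complex, were found together in 60.8%, but with Mmp2 in 3.14% (21.6% and 0.588% after thinning). Timp2 was seen in 80.3% of cells with Mmp14 (72.6 to 86.6) and in 74.8% of those without (70.1 to 79.1) after thinning. These intervals overlap, so no link between the pair was detectable at this depth.

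Within mesothelial-like cells the inhibitors did not move together. Cells with at least 3 UMIs of Enpp2, the gene of autotaxin, numbered 109 and cells with none 355, and Enpp2-positive cells are led, after Enpp2, by Col3a1, Fndc1 and Igfbp3. Timp1 was 3.74-fold lower in Enpp2-positive cells (3.36 to 4.17), at 457 CPM against 1710 CPM in Enpp2-negative cells. Mmp19 was 5.76-fold higher (4.27 to 7.79), at 144 and 25.0 CPM. Timp2 at 893 and 724 CPM and Timp3 at 595 and 517 CPM differed little. Mmp14 at 307 and 149.6 CPM was 2.05-fold higher (1.75 to 2.40), just short of the rule once 20 CPM was added. The inhibitor UMIs per protease UMI were 3.93 (3.51 to 4.41) in Enpp2-positive and 14.9 (13.8 to 16.2) in Enpp2-negative cells.

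By the 2-fold rule 2 of 7 members tested were higher in Enpp2-positive cells (2.09% of 9571 genes) and 1 was lower (2.30%). One of the higher ones, Mmp12 at 37.6 against 7.05 CPM, rests on 1 cell that held 23 of its 29 UMIs, and stands at 7.87 CPM without that cell. Mmp23, a membrane-anchored family gene outside the 10 with 621 of its 650 UMIs in mesothelial-like cells, was 2.30-fold higher (1.92 to 2.75), at 254 and 111 CPM. The 8 mesothelial markers were all detected in both groups, but their sum was 4273 CPM in Enpp2-positive and 8151 CPM in Enpp2-negative cells. Of 9 stellate and fibroblast markers 5 had UMIs in Enpp2-positive cells, 127 CPM in sum, against 75.9 CPM in Enpp2-negative cells, with Lrat, Reln, Rgs5 and Lhx2 at 0 in Enpp2-positive cells. The part of this marker difference in the values above was not tested.

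The difference in Timp1 was graded. In cells with 0, 1 to 2, 3 to 9 and 10 or more Enpp2 UMIs it stood at 1710, 1480, 617 and 339.9 CPM. Mmp19 stood at 25.0, 141, 149.6 and 139.6 CPM, and the 141 CPM rests on 54 UMIs, 15 of them in 1 cell. Mmp14 stood at 149.6, 227, 336 and 286 CPM. After thinning to 2000 UMIs, Mmp19 was seen in 28.4% of Enpp2-positive cells, 15.2% of cells with 1 to 2 Enpp2 UMIs and 4.79% of Enpp2-negative cells. At 1000 UMIs the cells with 1 to 2 Enpp2 UMIs, at 19.6%, stood above the Enpp2-positive ones, so no order is read between those 2 groups.

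**Figure D5:**
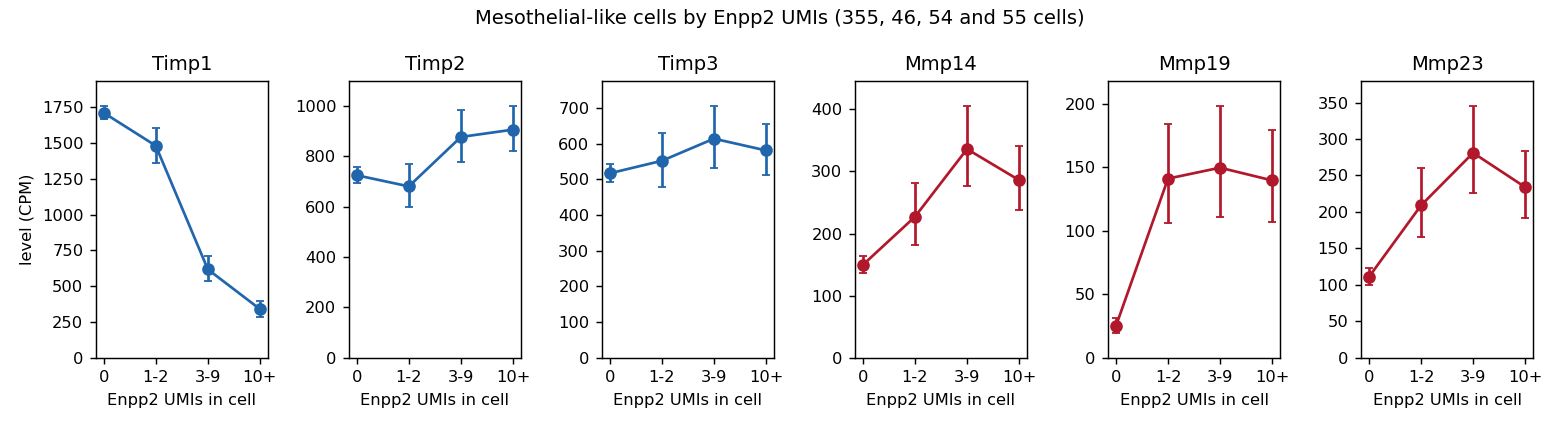
Level in CPM of 3 inhibitors (blue) and 3 proteases (red) in mesothelial-like cells grouped by the number of Enpp2 UMIs in the cell (355, 46, 54 and 55 cells from 0 to 10 or more), with exact Poisson intervals of 95%. Timp1 goes down over the bins to 339.9 CPM, Timp2 and Timp3 stay within narrow ranges, and Mmp19 stands at 139.6 CPM or more in every bin above 0.

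The genes around the proteases were also unevenly spread over the classes. Of 15 matrix substrates on the list used, 14 were higher in mesothelial-like cells than in all other kept cells and 0 lower (8.17% and 6.23% of all genes), with a median log2 ratio of 3.22 beside 0.02 over all genes. By ratio the largest were Col6a1 (869 against 4.54 CPM), Col5a2 (523 against 3.81 CPM), Lamb1 (68.8 against 0.532 CPM) and Eln, the gene of elastin (182 against 1.64 CPM). The cells with most Timp UMIs were thus also those with most matrix transcripts. In macrophage/monocyte-like cells all 5 lysosomal proteases of the list were higher (4.86% of all genes), with a median log2 ratio of 3.86 beside -0.08 over all genes, among them Ctsk, a cathepsin that cuts collagen, at 63.0 against 7.57 CPM. Between the macrophage subsets 4 of 5 lysosomal proteases were higher in Gpnmb/Spp1 cells and 0 lower (2.16% and 4.72% of all genes), and the ratio of Ctsk exceeded that of every member, with 846 UMIs in Gpnmb/Spp1 and 1 UMI in Kupffer-like cells (103 against 0.379 CPM; ratio 272, 48.6 to 10739).

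Other metalloproteinases were found on both sides. Of 12 ADAM and ADAMTS genes tested, 5 were higher and 1 lower in mesothelial-like cells (8.17% and 6.23% of all genes), led by Adamts9, a proteoglycan-cutting enzyme (76.3 against 0.409 CPM), Adamts5 (68.5 against 0.737 CPM), Adamts2, which trims procollagen (112 against 1.39 CPM), and Adam12 (22.2 against 0.328 CPM). The 1 lower gene was Adam8, at 4.68 against 172 CPM. In macrophage/monocyte-like cells 3 were higher and 3 lower (4.86% and 6.27% of all genes), and Adam8 stood at 282 against 21.5 CPM. Of 6 tested between the macrophage subsets 2 were higher in Gpnmb/Spp1 cells and 0 lower (2.16% and 4.72% of all genes), and Adam8 was 27.2-fold higher in Gpnmb/Spp1 than in Kupffer-like cells (20.1 to 37.8), at 433 against 15.9 CPM. Of the 8 genes of the plasminogen system, whose product plasmin can activate several MMP precursors, 3 were higher in mesothelial-like cells (8.17% of all genes), among them Plat, the tissue plasminogen activator (122 against 2.37 CPM), and Serpinb2, a plasminogen activator inhibitor (85.8 against 0.450 CPM). Serpinf2, the plasmin inhibitor of hepatocytes, was the 1 lower gene (6.23% of all genes).

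Regulators and partners of MMPs were mixed. Of 11 tested, 3 were higher in mesothelial-like cells (Pcolce at 612 against 5.20 CPM, Thbs1 at 95.7 against 18.5 CPM and Bsg, a cell-surface inducer of MMPs, at 1770 against 371 CPM) and 4 lower, where 8.17% and 6.23% of all genes were. Reck, a membrane-anchored MMP inhibitor, had 8.42 against 1.68 CPM and did not pass the rule. Lrp1, the endocytic receptor that clears MMP and TIMP complexes, went with macrophages: it had 2160 CPM in macrophage/monocyte-like cells against 244 CPM in the rest. Within mesothelial-like cells 2 of 4 plasminogen genes were higher in Enpp2-positive cells and 0 of 9 regulators (2.09% of all genes), of which 2 were lower (2.30%). Plat and Serpinb2 were 3.09-fold and 3.58-fold higher than in Enpp2-negative cells, and Bsg and Lcn2, whose product binds Mmp9, were 2.13-fold and 2.38-fold lower. Of the 15 matrix substrates 5 were higher in Enpp2-positive cells and 2 lower (2.09% and 2.30% of all genes). Vcan (178 against 16.7 CPM), Col3a1 (5786 against 1442 CPM), Col1a1 (3264 against 881 CPM) and Col1a2 (3757 against 1139 CPM) were higher in Enpp2-positive cells, and Col4a1 (63.5 against 187 CPM) and Eln (92.0 against 211 CPM) were lower. Of these 2 groups, Timp1 was thus lower in the one with more Col1a1, Col1a2 and Col3a1 transcripts. The 46 cells with 1 to 2 Enpp2 UMIs also had these 3 collagens among their leading genes, with Timp1 at 1480 CPM. A link of Timp1 to collagen from cell to cell was not tested.

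The rest of the family was sparse. Of 17 other family genes, Timp4 among them, 3 had more than 100 UMIs: Mmp23 with 650, Mmp27 with 599 and Mmp25 with 187. Mmp27 had 573 of its UMIs in macrophage/monocyte-like cells and Mmp25 147 in neutrophil-like cells. Mmp1a, Mmp1b, Mmp20 and Mmp21 had 0 UMIs, which allows up to 0.105 CPM over all kept cells, and Timp4, the inhibitor known from heart, had 1.

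Over the 12 groups of at least 50 cells, the genes with the most similar pattern were found by Pearson's r of log2(CPM + 20), a description over groups that share 1 library. For Mmp12 these were Fblim1 (0.979), Gpr137b (0.976) and Mmp13 (0.976), and for Mmp13 Fblim1 (0.991), Mmp12 (0.976) and Abhd12 (0.973). Mmp8 came with Trem1 (0.974), Slfn1 (0.966) and Rasgrp4 (0.949), whereas Mmp9 came with Ceacam10 (0.997), Stfa2l1 (0.997) and AA467197 (0.996), which are different genes. Timp1 was closest to Gnai1, Il17re and Sulf1 (0.998 each), Timp3 to Cav1 (1.000), Wfdc1 (0.999) and Gjb5 (0.999), and Timp2 to Dpy19l3 (0.941), Pmp22 (0.935) and Car13 (0.930). Mmp14 came with Cd99l2 (0.977), Plk2 (0.974) and Ift43 (0.951). The values of Mmp19 (Dedd 0.922, Fam102b 0.917 and Tctn1 0.907) and of Mmp2 (Smo 0.979, Zc2hc1a 0.974 and Col14a1 0.974) rest on 735 and 71 UMIs.

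Dividing cells showed smaller differences, looked at after the data were seen. In the 130 mesothelial-like cells with at least 3 of 7 division markers, Timp3 stood at 662 CPM and Timp2 at 553 CPM, against 468 and 854 CPM in the other 380, so Timp3 was higher and Timp2 lower. Timp1, at 1512 against 1438 CPM, and Mmp14, at 205 against 175 CPM, differed less. Mmp14 stood at 24.0 CPM in the 453 dividing macrophage/monocyte-like cells against 51.2 CPM in the other 1860, while Mmp12 was at 1369 and 1480 CPM. Among mesothelial-like cells the inhibitor difference also stood within Enpp2-negative cells, with Timp3 at 691 against 432 CPM and Timp2 at 502 against 834 CPM. Dividing cells were deeper, with a median of 9937.5 UMIs against 6648.5 UMIs in the other mesothelial-like cells, and the part of depth was not tested.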

How the data were processed

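Livers were dissociated and cells captured on microwell chips with the Singleron GEXSCOPE kit, per the labels' protocols. The values are whole-number UMI counts per gene and cell as the authors deposited them; the build is GRCm38, per the submitters' processing notes, and aligner and counter are not stated. Depth and its precision are given with the results: totals of 28912707 UMIs in the matrix labelled CluKO, and counting error alone behind each interval. The 6 samples labelled CluKO share that matrix and no barcode names its sample, so they count as 1 sample, and no test was run. The gene table matched no wild-type matrix by its number of rows, so those gave depth only.

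Cells under 200 genes or over 20% mitochondrial counts were left out, and the others were gated on at least 3 detected markers of a class; hepatocyte-like and erythroid-like cells also needed marker shares of 2% and 10% of UMIs. Counts were summed per class, and intervals were exact Poisson (levels), conditional binomial (ratios) and Clopper-Pearson (shares of cells), all at 95%. Ratios followed the 2-fold rule with 20 CPM added. Member genes took no part in the gates. Named were all 10 members, up to 4 genes per list, direction and comparison with the largest ratio, and the 3 genes most like each member. Other genes and the neutrophil bins above 1% were named after their values were seen. The members and lists were chosen with earlier results of these data known. Alternatives changed the cell filters, gates, totals, offset, thinning (1000 UMIs) and clustering. Python 3.11.15, scipy 1.17.1, pandas 2.3.3, scanpy 1.11.5 and leidenalg 0.10.2 were used, and the code was tested on simulated data.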

Additional observations from a re-analysis of the deposited data

How the results depend on the processing

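The log2 ratio of summed Mmp to summed Timp level kept its sign in every setting run but the removal of Mmp12. In mesothelial-like cells it was -3.36, and -3.21 as a mean of per-cell CPM. In macrophage/monocyte-like cells it was 2.77, 2.50 as a mean of per-cell CPM and 2.60 without the 1% of cells with the most member UMIs. In neutrophil-like cells it was 4.62, 4.96 as a mean of per-cell CPM, 5.28 in Leiden clusters drawn without the members, and 4.90 where a marker counted only at or above its mean level, a setting chosen after seeing the data. The causes were not tested. Leaving out Mmp12, also chosen after seeing the data, turned the direction in macrophage/monocyte-like cells (0.780 Mmp per Timp UMI), the Gpnmb/Spp1 subset (0.615) and the Kupffer-like subset (0.525). Of 223 pairs of a member value past 2-fold and a setting, 221 stayed past 2-fold in the same direction. The other 2 were Mmp12 in Enpp2-positive cells, with a log2 ratio of 1.09 that became 0.90 in Leiden clusters and 0.83 as a mean of per-cell CPM. Pairs with an offset of 5 CPM or a summed count of at least 10 could not fall under 2-fold, so they carry no weight. Those settings also leave the summed ratio as it is. Over all member values, 9 moved by more than their counting error in Leiden clusters and 18 did not. With the offset of 5 CPM 12 moved and 20 did not, and in the other settings 0 to 8 moved. The granule split had no value in Leiden clusters, since none was mostly of the cells under 1%. No paired analysis was possible because the samples labelled CluKO share 1 matrix, and for the same reason no sample could be left out. Depth limits Mmp2, at 71 UMIs, and the 23 endothelial-like cells.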
